A study of Mus musculus with 8 samples.

Results

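Chemokines are small secreted or membrane-anchored proteins that direct the movement of cells, and they are read by G protein-coupled receptors on the cells they attract. Atypical receptors bind the same ligands without activating G proteins and remove them from the surroundings. In kidney, tubule epithelium, fibroblasts and endothelium are known sources of chemokines, and leukocytes carry most of the signalling receptors. The genes described here are 60 of the 22322 rows in the deposited table, with symbols of the Ccl, Cxcl, Xcl and Cx3cl ligands (39 genes) or of the Ccr, Cxcr, Cx3cr1 and Ackr receptors (21 genes). They were picked by symbol alone, though with earlier results of these data known. Of the 60, 44 had at least 1 count in some library and 22 had enough counts to be tested, 18 ligands and 4 receptors.

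RNA was sequenced from 8 mouse samples labelled as primary renal fibroblasts. The 4 Ad-GFP samples, infected with an adenovirus carrying green fluorescent protein, are labelled WT. The 4 Ad-Cre samples, infected with an adenovirus carrying Cre recombinase, are labelled suv39h1 knockdown. Suv39h1 is a histone methyltransferase that places the H3K9 trimethyl mark of heterochromatin. Every sample, controls included, was given TGF-β at 5 ng/ml for 48 hours, so there is no unstimulated group. The labels and files used here name no strain, animal age or allele on which Cre acts, and do not say whether replicates were separate cultures. The p-values therefore speak only to the spread among these 8 libraries, and that spread may be technical.

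The libraries held 15879244 to 17930632 counts in Ad-GFP and 18006938 to 23940043 in Ad-Cre, so every Ad-Cre library was the deeper. Suv39h1 itself stood at 79.6% of its Ad-GFP level (28.9 ± 0.77 against 23.1 ± 1.6 CPM, SD, n = 4; edgeR adjusted p = 3.29e-05), where CPM, the count corrected for depth, is scaled to the library total with TMM factors. Markers of several cell types were present. In Ad-GFP the sum over 12 epithelial markers was 6009 CPM, with the 10 fibroblast markers at 791.9, the 15 macrophage and leukocyte markers at 358.9 and the 13 endothelial markers at 148.2. CPM is not divided by transcript length and the lists hold different genes, so these sums do not rank the cell types. Among lymphocyte and neutrophil markers Cd3d, Cd3e, Cd8a, S100a9 and Mpo were at 0 counts in every library. In such bulk samples fewer cells of a type and less RNA per cell cannot be told apart.

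The bases just upstream of 4 of these genes, picked from those that changed, are shown as a description. Of the 4, the ligand Cxcl12, its signalling receptor Cxcr4 and the ligand Ccl20 fell, and the ligand Cxcl14 rose. Each run holds the 250 bases before the RefSeq start (GRCm38.p6), 5′ to 3′ on the gene's strand. Capitals mark any match, on either strand, to 3 patterns. The first has the outline of an NF-κB site, which is GGG followed by CC with 5 bases of any kind between them. The second, the GC box bound by Sp proteins, reads GGGCGG. The third, the TATA element, reads TATAA.
Cxcl12: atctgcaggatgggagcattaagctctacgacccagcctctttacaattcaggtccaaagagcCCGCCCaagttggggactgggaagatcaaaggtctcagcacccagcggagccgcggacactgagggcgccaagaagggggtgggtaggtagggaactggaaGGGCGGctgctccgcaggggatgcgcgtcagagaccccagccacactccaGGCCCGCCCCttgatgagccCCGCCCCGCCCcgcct
Cxcr4: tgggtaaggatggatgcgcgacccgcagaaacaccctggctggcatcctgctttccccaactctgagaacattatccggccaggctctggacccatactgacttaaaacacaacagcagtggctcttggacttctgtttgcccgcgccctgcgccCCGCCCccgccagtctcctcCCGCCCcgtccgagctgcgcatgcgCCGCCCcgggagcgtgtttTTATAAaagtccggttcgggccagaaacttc
Ccl20: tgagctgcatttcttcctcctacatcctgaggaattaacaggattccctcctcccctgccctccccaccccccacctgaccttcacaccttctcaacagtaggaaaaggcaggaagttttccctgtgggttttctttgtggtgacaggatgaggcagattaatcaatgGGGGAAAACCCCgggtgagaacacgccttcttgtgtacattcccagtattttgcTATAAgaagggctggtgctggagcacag
Cxcl14: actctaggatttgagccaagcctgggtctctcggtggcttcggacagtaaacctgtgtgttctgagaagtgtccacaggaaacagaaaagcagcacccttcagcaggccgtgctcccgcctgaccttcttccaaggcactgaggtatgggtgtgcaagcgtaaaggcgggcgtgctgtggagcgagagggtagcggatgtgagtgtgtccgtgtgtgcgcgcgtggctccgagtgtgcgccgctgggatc
These windows lie at chr6:117168285-117168534 (plus strand), chr1:128592300-128592549 (minus), chr1:83116516-83116765 (plus) and chr13:56296552-56296801 (minus). The Cxcl12 window held 5 GC boxes and no TATA element, and its single NF-κB match overlapped a GC box. Cxcr4 held 3 GC boxes and an overlapping pair of TATA matches whose first base lies 31 bases before the start. Ccl20 held 3 overlapping NF-κB matches, the outermost beginning 82 bases before the start, and a TATA match at 28 bases, but no GC box. The Cxcl14 window matched none of the 3 patterns, which says only that these letters are not in it. CG dinucleotides numbered 14 for Cxcl12, 19 for Cxcr4, 16 for Cxcl14 and 2 for Ccl20, against a median of 6 over all 32851 promoters in the table. Of those promoters 45.8% hold the NF-κB pattern, 32.7% the GC box and 22.8% the TATA pattern, so each match is common and is a description only.

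Which chemokine genes were expressed at all was asked first, on the authors' FPKM, which divides by transcript length and so can be compared between genes. Cxcl16, a membrane-anchored ligand that is also shed and that binds Cxcr6, stood far above the rest, at 54.6 ± 4.8 FPKM in Ad-GFP and 52.6 ± 2.0 in Ad-Cre (SD, n = 4). Next came Ccl6, a CC ligand found in rodents, at 10.2 ± 1.1 and 9.03 ± 1.4 FPKM. The monocyte attractant Ccl2, the fractalkine gene Cx3cl1, Cxcl14 and Cxcr4 lay between 3.69 and 7.1 FPKM in their group means. The remaining 16 tested genes were under 5 FPKM in both groups, down to Ccl28 at 0.178 and 0.297 FPKM. Receptors were expressed at a low level throughout, and the 4 tested had Ad-GFP means of 2.08 (Ackr3) to 5.64 FPKM (Cxcr4) and Ad-Cre means of 1.21 (Cx3cr1) to 3.69 FPKM (Cxcr4).

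**Figure D1:**
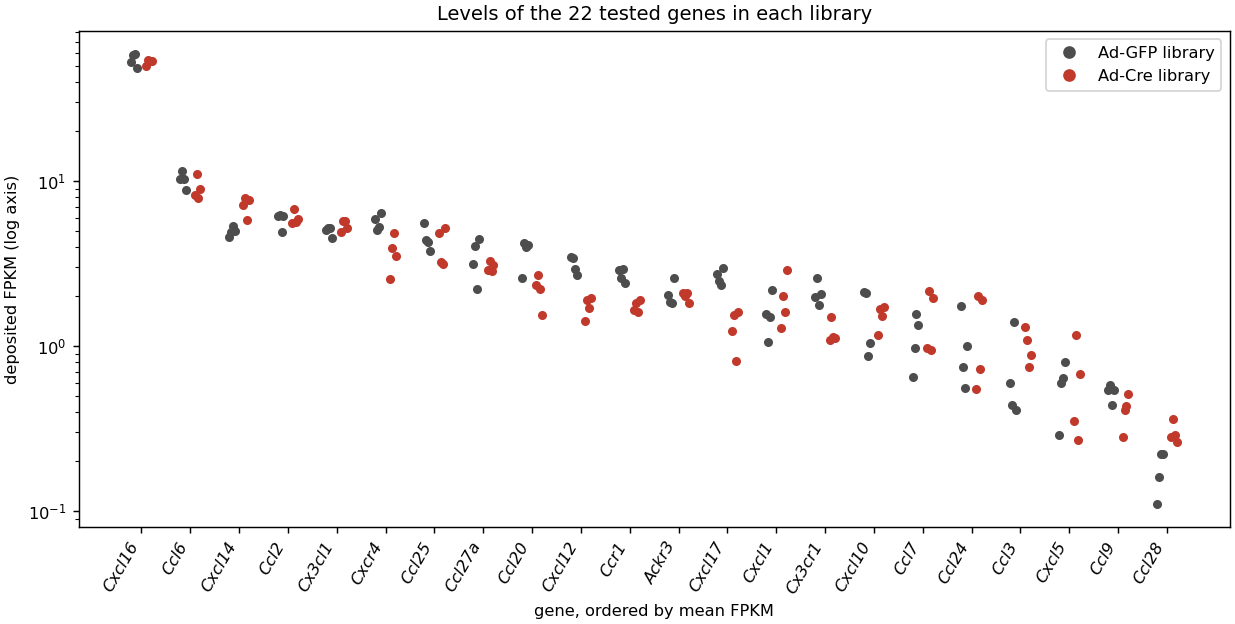
Deposited FPKM (log axis) of the 22 tested chemokine and receptor genes, ordered by mean level, with 1 point per library in grey for Ad-GFP and red for Ad-Cre. Cxcl16 averages 54.6 FPKM in Ad-GFP and 52.6 in Ad-Cre, and the group means of the other 21 genes lie between 0.178 and 10.2 FPKM.

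Of the 22 tested genes, 9 changed between Ad-Cre and Ad-GFP, 6 lower and 3 higher. A gene is said to rise or fall where edgeR's quasi-likelihood test, fitted on all genes, gave an adjusted p under 0.05. Over all 13337 genes tested 40.3% changed, 20.5% lower and 19.8% higher, so the share of 40.9% among the chemokine genes is close to the background. The median log2 fold change was -0.07 over the 22 genes and 0.0041 over all genes tested. In 8 of the 22 genes the 4 Ad-Cre values did not overlap the 4 Ad-GFP values, against 35.4% of all genes tested. Cxcl12 alone changed at least 2-fold on counts, against 1.92% of all genes tested. In the authors' deposited FPKM its log2 fold change was smaller, at -0.85. The 6 falls were 3 ligands and 3 receptors, and the 3 rises were all ligands.

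**Figure D2:**
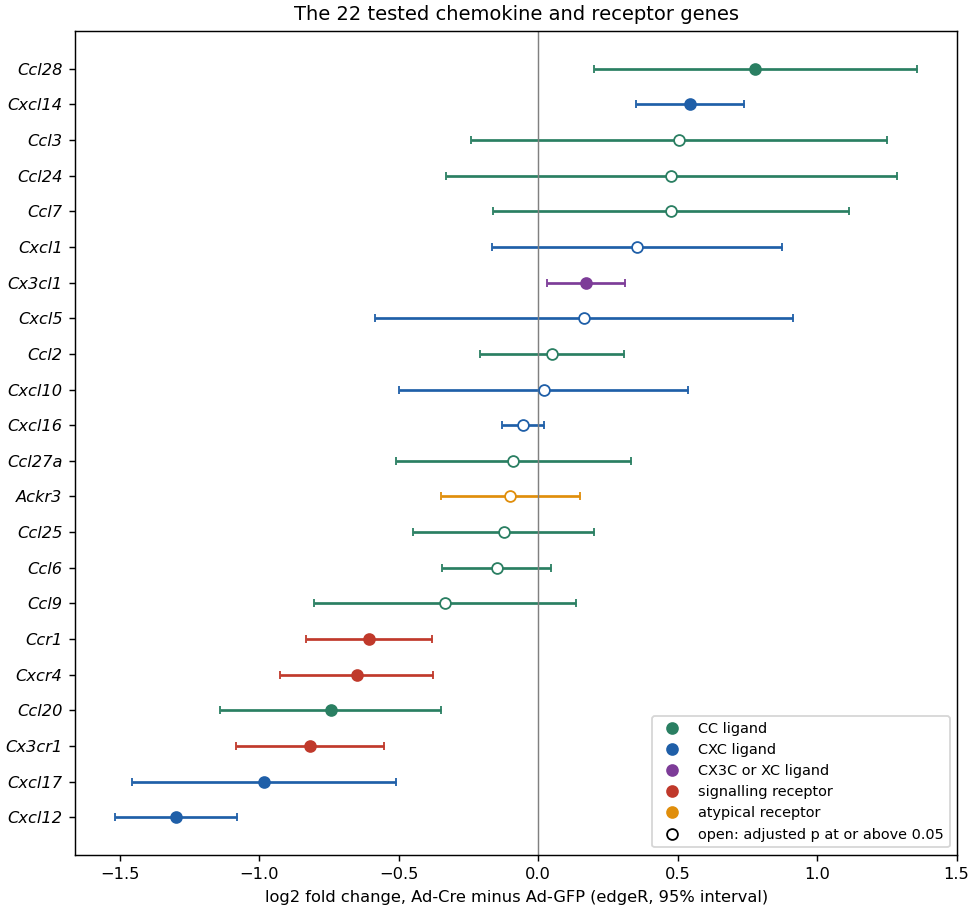
Log2 fold change (Ad-Cre minus Ad-GFP) of the 22 tested genes with 95% intervals from the edgeR fit, coloured by class, with open points where the adjusted p was 0.05 or more. The 3 signalling receptors lie between -0.82 and -0.61, and the ligands run from -1.30 for Cxcl12 to 0.78 for Ccl28.

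Among the ligands, Cxcl12 fell the most. Cxcl12 (ENSMUSG00000061353, chromosome 6, 117168535 to 117181367, plus strand, GRCm38) encodes the stromal chemokine SDF-1, which retains and guides Cxcr4-bearing cells. Its level was 13.8, 14.1, 12.7 and 11.6 CPM across Ad-GFP replicates 1 to 4 and 4.31, 5.34, 5.05 and 6.39 CPM in Ad-Cre replicates 1 to 4. The highest Ad-Cre library was well below the lowest Ad-GFP library. Cxcl12 in Ad-Cre thus stood at 40.6% of its Ad-GFP level (95% interval 35.0% to 47.2%), or -1.30 ± 0.11 as log2 fold change (SE, n = 4 per group; edgeR adjusted p = 2.21e-10). Cxcl12 is made by fibroblasts, endothelium and mural cells, whose marker sums were lower in Ad-Cre as well. The 10 fibroblast markers summed to 773.8 to 819.7 CPM in Ad-GFP libraries and 501.4 to 576.5 in Ad-Cre, with 6 of 9 tested lower and 0 higher. For the 13 endothelial markers the sums were 145.1 to 150.2 and 68.9 to 80.7 CPM, with 11 of 12 tested lower and 0 higher. For the 7 mural markers the sums were 1046 to 1083 and 635.8 to 693 CPM, with 5 of 7 lower and 0 higher. Most of the mural sum and of its drop was Acta2, at 796.3 CPM in Ad-GFP and 422.1 in Ad-Cre. Mcam, the next of that list, was at 91.7% of Ad-GFP. The part of those cells in the fall of Cxcl12 was not tested.

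Cxcl12 also differed in a second readout, the transcript length implied by dividing its count by its FPKM. That length was 3998, 4146, 4350 and 4354 bases in Ad-GFP replicates 1 to 4 and 3033, 2792, 2943 and 3233 bases in Ad-Cre replicates 1 to 4. The mean was 4212 ± 173 bases in Ad-GFP and 3000 ± 184 in Ad-Cre (SD, n = 4), and the groups did not overlap. A two-sided exact permutation test returned p = 0.0286, its lowest possible value with 4 samples a group, and 0.629 after adjustment over the 22 genes. A gene that reaches the lowest value alone cannot pass that adjustment, so the adjusted test could not decide for Cxcl12. In Cxcl14, by comparison, the implied length was 1822 ± 5 and 1825 ± 2 bases. Of 11122 genes with at least 50 counts in every library, 12 (0.108%) had implied lengths at least 1.2-fold apart with no overlap of the groups, a limit set after the Cxcl12 values were seen. GENCODE M21 lists protein-coding Cxcl12 transcripts of 5627, 3132 and 1878 bases, and the table gives no counts per transcript. FPKM divides by that length, and the fall of Cxcl12 was smaller in FPKM, from 3.13 ± 0.38 to 1.74 ± 0.25 (SD, n = 4), and the log2 fold change in the authors' deposited table is -0.85 against -1.30 from counts. With limma on log2(FPKM + 1) the value was -0.59 (adjusted p = 0.000721). With limma on log2(FPKM + 0.1) it was -0.81 (adjusted p = 0.000835), so the constant added before the log also shapes the value.

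**Figure D3:**
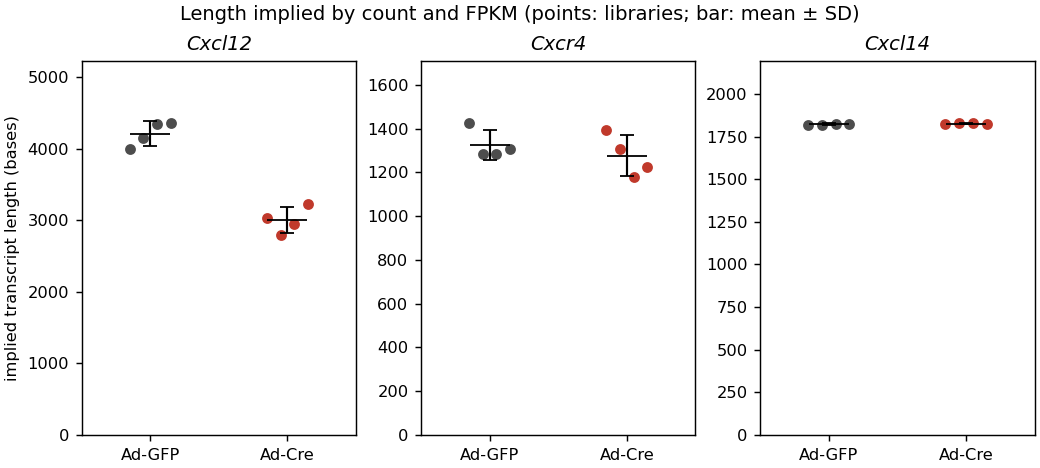
Transcript length in bases implied by count and FPKM in each library for Cxcl12, Cxcr4 and Cxcl14, with the mean and SD of each group. Cxcl12 averages 4212 bases in Ad-GFP and 3000 in Ad-Cre without overlap, Cxcr4 averages 1325 and 1276, and Cxcl14 averages 1822 and 1825.

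Cxcl17, a mucosal chemokine of epithelial cells (chromosome 7, 25400053 to 25412886, minus strand), fell as well. Its level was 2.06, 1.88, 1.77 and 2.25 CPM across Ad-GFP replicates 1 to 4 and 0.951, 1.18, 0.625 and 1.22 CPM in Ad-Cre. All Ad-Cre libraries lay below all Ad-GFP libraries, at 50.6% of Ad-GFP (95% interval 36.4% to 70.3%; edgeR adjusted p = 0.00131), on 13 to 36 counts per library. Ccl20, which attracts Ccr6-bearing lymphocytes and dendritic cells (chromosome 1, 83116766 to 83119167, plus strand), was at 2.24, 3.48, 3.25 and 3.25 CPM in Ad-GFP and 1.90, 2.23, 1.83 and 1.31 CPM in Ad-Cre. Ad-GFP replicate 1 was only just above Ad-Cre replicate 2, and the level in Ad-Cre was 59.7% of Ad-GFP (45.4% to 78.5%; edgeR adjusted p = 0.00301). Epithelial cells make both ligands, and the 12 epithelial markers summed to 5898 to 6115 CPM over the Ad-GFP libraries and 5431 to 5506 CPM over the Ad-Cre libraries, with 4 higher and 6 lower. The part of those cells in these falls was not tested. The receptor of Ccl20, Ccr6, was at 0 counts in every library.

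Cxcl14, Ccl28 and Cx3cl1 rose. Cxcl14, an epithelial and stromal chemokine (chromosome 13, 56288643 to 56296551, minus strand), measured 8.31, 8.90, 9.63 and 9.07 CPM across Ad-GFP replicates 1 to 4 against 13.1, 14.4, 10.7 and 14.0 CPM in Ad-Cre. Every Ad-Cre library was above every Ad-GFP library, and the level was 146% of Ad-GFP (128% to 167%; log2 fold change 0.54 ± 0.094, SE, n = 4 per group; edgeR adjusted p = 4.36e-05). Ccl28, a mucosal ligand of Ccr10 (chromosome 13, 119623819 to 119654359, plus strand), rested on 7 to 14 counts per Ad-GFP library and 19 to 32 per Ad-Cre library. The mean went from 0.663 ± 0.20 to 1.13 ± 0.15 CPM (SD, n = 4 each; 171%; edgeR adjusted p = 0.0294), and the groups did not overlap. It no longer passed when Ad-GFP replicate 1 (adjusted p = 0.115) or 2 (0.0717) or Ad-Cre replicate 2 (0.0962) was left out, under DESeq2 (0.106) and after thinning all libraries to 1 depth (0.0589). Cxcl14 kept its call under all 18 alternative settings.

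Cx3cl1, the fractalkine gene, whose product is a membrane-anchored adhesion molecule that is shed by Adam10 and Adam17 (chromosome 8, 94772009 to 94782427, plus strand), was at the threshold. Its level was 15.7, 15.98, 17.1 and 14.8 CPM across Ad-GFP replicates 1 to 4 and 16.4, 19.2, 18.4 and 17.4 CPM in Ad-Cre, and the groups overlapped. The level was 113% of Ad-GFP (102% to 124%), with an edgeR adjusted p = 0.0483. The call was lost under 14 of 18 alternatives, with adjusted p-values of 0.0241 to 0.275 over the 18. Among those 14 were RLE scaling (0.0504) and leaving out Ad-GFP replicate 1 (0.0975), 2 (0.0782) or 4 (0.138) or Ad-Cre replicate 2 (0.168), 3 (0.0999) or 4 (0.0597).

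**Figure D4:**
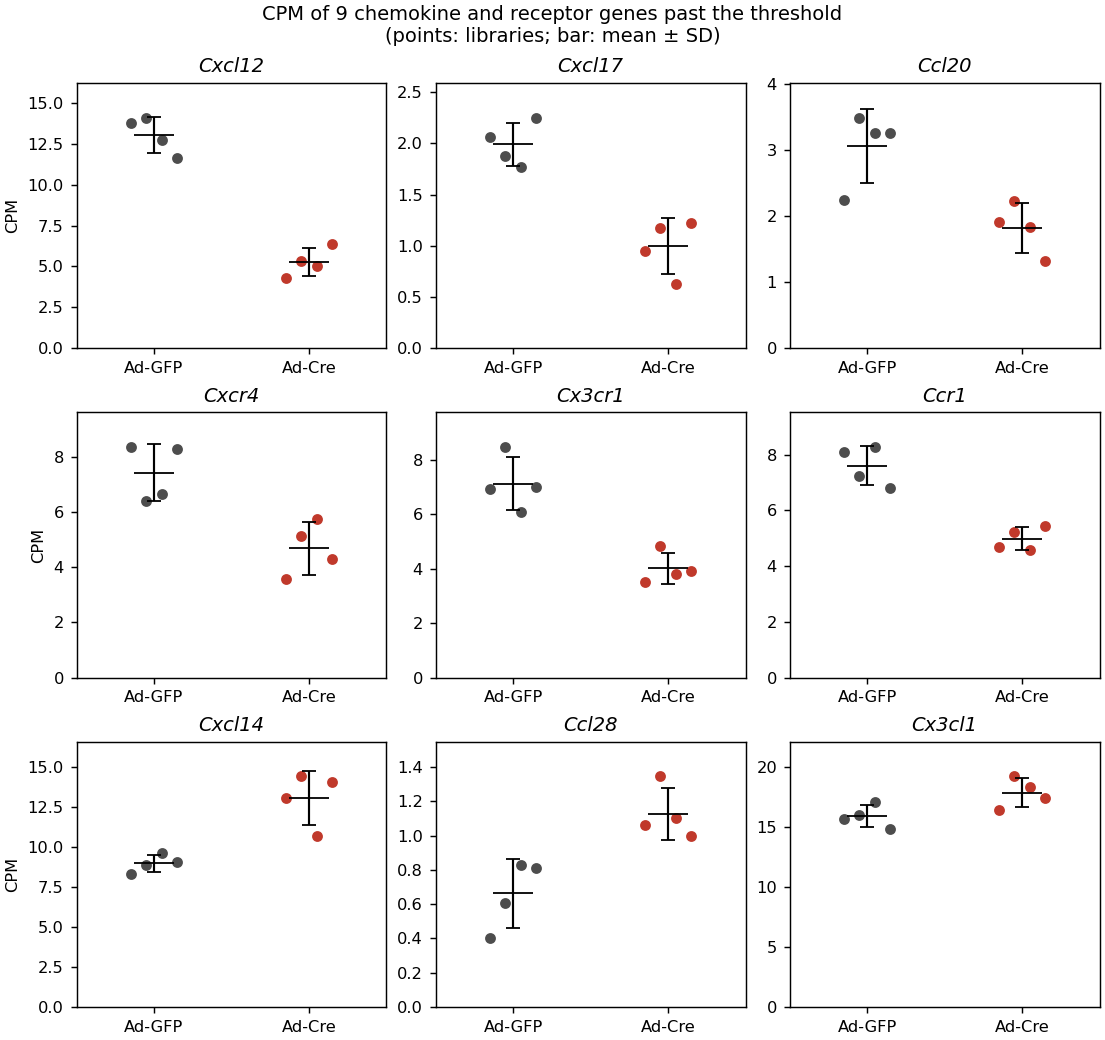
CPM in each library of the 9 chemokine and receptor genes past the threshold, with the mean and SD of each group of 4 and each vertical axis starting at 0. The groups are apart in 8 of the 9 panels and overlap in Cx3cl1.

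Cxcl16 and Ccl6, the ligands of highest FPKM among the genes chosen by symbol, did not pass the test. Cxcl16 was at 121, 131, 135 and 115 CPM across Ad-GFP replicates 1 to 4 and 119, 123, 125 and 118 CPM in Ad-Cre. The Ad-Cre values lay within the Ad-GFP range, and the level in Ad-Cre was 96.3% of Ad-GFP, with an interval of 91.3% to 102% (edgeR adjusted p = 0.258). Without Ad-GFP replicate 4 it passed the threshold, at a log2 fold change of -0.09 (adjusted p = 0.0444). Exons of Cxcl16 overlap those of Zmynd15 on the other strand over 552 bases. Strand use in counting is not stated in the labels, and Zmynd15 held 429 counts in all against 18852 for Cxcl16. Ccl6 was at 14.7, 16.4, 14.7 and 12.6 CPM in Ad-GFP and 11.9, 16.1, 11.5 and 12.9 CPM in Ad-Cre (90.2% of Ad-GFP, 78.8% to 103%; edgeR adjusted p = 0.218). Ad-Cre replicate 2 was the highest of its group, and without it Ccl6 passed the threshold at a log2 fold change of -0.27 (adjusted p = 0.0157).

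A further group of ligands, the monocyte attractant Ccl2, the CXC ligands Cxcl1, Cxcl5 and Cxcl10 and the CC ligands Ccl3, Ccl7, Ccl9 and Ccl24, was low and did not pass the test in either direction. Ccl2 averaged 4.73 ± 0.51 CPM with Ad-GFP against 4.88 ± 0.43 with Ad-Cre (SD, n = 4; 103%, interval 86.6% to 124%). The neutrophil attractants Cxcl1 and Cxcl5 were at 1.49 and 0.914 CPM in Ad-GFP, and the interferon-induced Cxcl10, a ligand of Cxcr3, at 1.66 CPM. Their intervals were wide: 89.1% to 183% of Ad-GFP for Cxcl1, 66.6% to 188% for Cxcl5 and 70.8% to 145% for Cxcl10. The CC ligands Ccl3, Ccl7, Ccl9 and Ccl24 lay between 0.542 and 1.56 CPM in Ad-GFP. Of these, Ccl3 was at 8, 6, 18 and 5 counts in Ad-GFP replicates 1 to 4, and without replicate 3 it passed the threshold at a log2 fold change of 1.05 (adjusted p = 0.0364). Its interval over all 8 libraries, 84.6% to 238% of Ad-GFP, covers a fall as well as a rise of more than 2-fold. Ccl25, a thymic and gut ligand, was at 91.7% of Ad-GFP (73.3% to 115%). Its exons overlap those of Elavl1 on the other strand over 204 bases, and Elavl1 held 14375 counts against 590 for Ccl25. As strand use in counting is not stated, some Ccl25 counts may belong to Elavl1. The skin chemokine gene Ccl27a was at 94.0% (70.1% to 126%), but 45.0% of its 50-base words also occur in transcripts of near-identical copies (Gm20878, Gm13306 and Ccl27b), so its counts are uncertain.

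The signalling receptors Cxcr4, Cx3cr1 and Ccr1 fell, 3 of 3 tested, against 20.5% of all genes tested, and the atypical receptor Ackr3 did not pass the test. Each of the 3 kept its call under all 18 alternatives, and the groups did not overlap in any of the 3. Their summed level was 21.0 to 23.4 CPM in Ad-GFP libraries and 11.8 to 15.2 CPM in Ad-Cre. They are 3 of the 17 signalling receptor genes described here, and the other 14 had too few counts.

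Cxcr4, the receptor of Cxcl12 (ENSMUSG00000045382, chromosome 1, 128588199 to 128592293, minus strand), was at 8.37, 6.42, 6.68 and 8.32 CPM across Ad-GFP replicates 1 to 4 and 3.58, 5.13, 5.77 and 4.30 CPM in Ad-Cre. The level in Ad-Cre was 63.7% of Ad-GFP (52.6% to 77.0%; log2 fold change -0.65 ± 0.13, SE, n = 4 per group; edgeR adjusted p = 0.000329). Ackr3, the atypical receptor that scavenges Cxcl12 (chromosome 1, 90203980 to 90216751, plus strand), was at 6.25, 5.64, 5.56 and 7.82 CPM in Ad-GFP and 6.49, 6.18, 5.24 and 5.62 CPM in Ad-Cre. The groups overlapped, and the level was 93.3% of Ad-GFP (78.5% to 111%; edgeR adjusted p = 0.540). Within the Cxcl12 system the ligand and Cxcr4 therefore fell and Ackr3 did not pass the test, while the difference between Cxcr4 and Ackr3 was not itself tested.

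Cx3cr1, the fractalkine receptor of monocytes and macrophages (ENSMUSG00000052336, chromosome 9, 119901616 to 120069879, minus strand), was at 6.94, 8.46, 6.09 and 7.003 CPM across Ad-GFP replicates 1 to 4 and 3.53, 4.84, 3.80 and 3.90 CPM in Ad-Cre. All Ad-Cre libraries were below all Ad-GFP libraries, at 56.7% of Ad-GFP (47.2% to 68.1%; log2 fold change -0.82 ± 0.13, SE, n = 4 per group; edgeR adjusted p = 1.21e-05). Its ligand Cx3cl1 was at 113%, as given above. Ccr1, a receptor of Ccl3, Ccl5 and Ccl7 on myeloid cells (ENSMUSG00000025804, chromosome 9, 123962124 to 123968692, minus strand), was at 8.08, 7.25, 8.27 and 6.82 CPM in Ad-GFP and 4.70, 5.21, 4.57 and 5.44 CPM in Ad-Cre. That is 65.7% of Ad-GFP (56.1% to 76.9%; edgeR adjusted p = 8.29e-05), with no overlap.

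Ccr1 and Cx3cr1 are typical of macrophages, and markers of those cells were lower in Ad-Cre too. Of 15 macrophage and leukocyte markers 11 fell, 0 rose and none was at 0 counts. Their sum was 326.2 to 378.3 CPM in Ad-GFP libraries and 284.6 to 295.8 CPM in Ad-Cre. In percent of the Ad-GFP mean, the Ad-Cre libraries stood at 79.3% to 82.4% for that marker sum and at 53.2% to 68.5% for the sum of the 3 receptors. Lyz2 and Csf1r, the markers of highest CPM in that list, fell to 89.5% and 82.5%. For T cell markers the sums overlapped between the groups, at 4.87 to 6.42 and 4.23 to 6.88 CPM. B cell markers summed to 0.313 to 0.591 CPM in Ad-GFP and 0.181 to 0.252 in Ad-Cre, and neutrophil markers to 0.344 to 1.22 and 0.252 to 0.56 CPM, with none of either list tested. The part of these cells in the fall of the receptors was not tested.

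**Figure D5:**
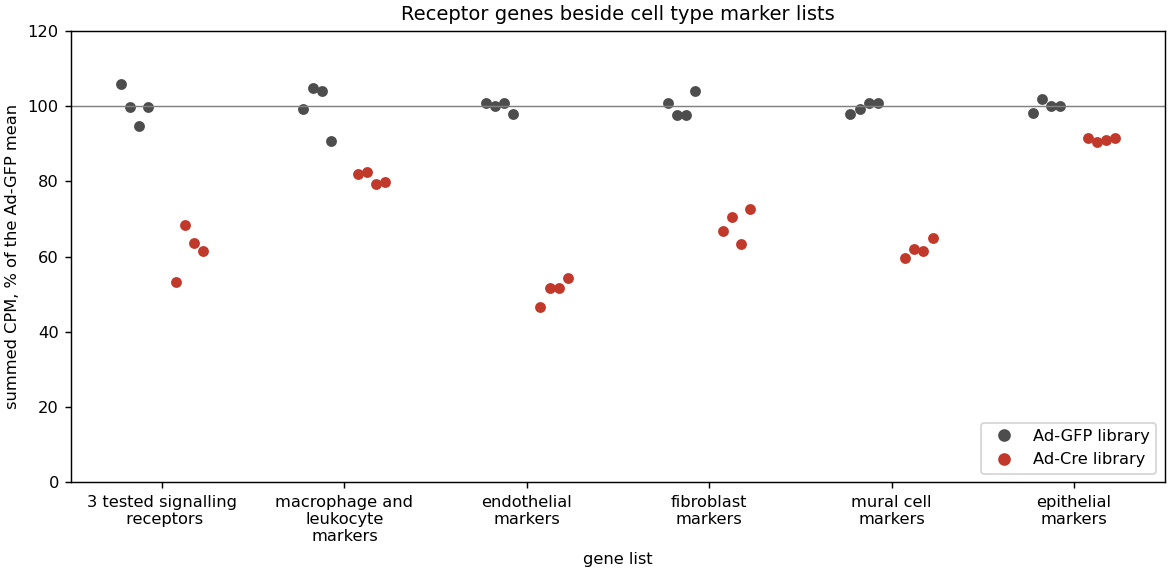
Summed CPM per library, in percent of the Ad-GFP mean, for the 3 tested signalling receptors and for 5 cell type marker lists, grey for Ad-GFP and red for Ad-Cre. The receptors stand at 53.2% to 68.5% in Ad-Cre, below the macrophage and leukocyte markers at 79.3% to 82.4%, and the endothelial markers stand at 46.5% to 54.4%.

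The other 38 genes had too few counts for the fit. Of these, 16 were at 0 counts in all 8 libraries: the ligands Ccl1, Ccl11, Ccl19, Ccl21a, Ccl21b, Ccl21d, Ccl22, Ccl26, Ccl27b and Xcl1, and the receptors Ackr1, Ccr1l1, Ccr3, Ccr6, Ccr7 and Ccr8. A count of 0 allows up to 3 counts, or 0.126 to 0.188 CPM depending on the library, by counting error only. Ccl19, Ccl21a and Ccr7, of the lymphoid homing system, were thus without counts. Sequence shared with other genes was not examined for the genes at 0 counts. Reads lost to such sharing cannot be told from absence. A further 11 genes had 1 to 9 counts over all 8 libraries: Cxcl3 with 9, Ccl8 with 8, Ccr9 and Cxcr5 with 6, Cxcl11 with 5, Cxcr2 with 4, Cxcl13 with 3, Cxcr3 with 2, and Cxcl15, Ccr4 and Cxcr1 with 1. The last 11 had 10 to 67 counts. Among these Ccl5, a ligand of Ccr1, had 2 to 4 counts in each Ad-GFP library and 5 to 7 in each Ad-Cre library. Its exact permutation test on CPM gave p = 0.0286, two-sided and the smallest possible, and 0.315 after adjustment over the 11. The neutrophil attractant Cxcl2 had 18 counts over the Ad-GFP libraries and 49 over Ad-Cre (exact permutation p = 0.114). The interferon-induced Cxcl9 had 0 counts in Ad-GFP and 10 in Ad-Cre (exact permutation p = 0.143), and passed edgeR's test only when the filter on low counts was dropped (adjusted p = 0.0274). The scavenging receptor Ackr2 had 15 and 5 (exact permutation p = 0.143). Cxcr6, the receptor of Cxcl16, had 30 and 29 counts (exact permutation p = 0.286). Ccl12 had 58 counts over all libraries, Ackr4 38, Ccl4 33, Ccr10 26, Ccr2 12 and Ccl17 11. None of the 11 passed after adjustment (adjusted p of 0.315 or more). A gene that reaches the smallest possible p alone, as Ccl5 did, cannot pass it, so the adjusted test could not decide.

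The genes lie largely in clusters. On chromosome 9, which carries 12 of the 21 receptor genes, both tested genes (Cx3cr1 and Ccr1) fell. On chromosome 11, which carries 11 of the 24 CC ligands, 0 of 6 tested genes passed, and on chromosome 5, with Cxcl1, Cxcl5, Cxcl10 and Ccl24, 0 of 4 passed. Whether the chromosomes differ was not tested. Both tested genes of chromosome 13, Cxcl14 and Ccl28, rose, though the call for Ccl28 was lost under 5 alternatives, as given above. Over all genes tested, 20.5% fell and 19.8% rose, and these counts per chromosome are too small to be read against those shares. In the authors' deposited table, 6 of the 60 genes were lower and 1 higher at an FDR under 0.05, against 18.7% of all rows at that FDR. The 6 are the same falls, and the 1 is Cxcl14. For Ccl28 and Cx3cl1 the authors' deposited table gives an FDR of 0.127 and 0.156.

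Chemokine genes whose symbols lie outside the naming pattern were looked up beside them. Ppbp, which encodes the platelet chemokine CXCL7, a ligand of Cxcr2, fell from 44.4 ± 1.1 to 25.3 ± 2.6 CPM (SD, n = 4 each), which is 57.1% of Ad-GFP (edgeR adjusted p = 1.36e-11). Its mean level was 32.2 FPKM. Mif, a cytokine that also binds Cxcr2 and Cxcr4 and the most abundant of these genes at 140.2 FPKM, fell to 92.5% (edgeR adjusted p = 0.0179). Of the 7 such genes 4 were tested, and 3 fell and 0 rose.

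Genes that act with the chemokines were read from lists, to be set against 40.3% changed, 19.8% higher and 20.5% lower, over all genes tested. Of 25 tested genes of receptor signalling (G proteins, arrestins, kinases and Rac activators) 0 rose and 16 fell (64.0% changed), and their median was -0.32 (log2). The inhibitory G protein subunit gene Gnai1 fell to 68.5%, and Gnb1, the most abundant of the list, was at 99.7% (adjusted p = 0.886). That list includes leukocyte genes such as Dock2, Rac2 and Vav1, and leukocyte markers were lower in the same samples, as given above. The part of leukocytes in the falls of this list was not tested. Of 28 NF-κB genes and upstream receptors 11 rose and 5 fell (57.1% changed, median 0.10). Nfkb1, which encodes the p105 and p50 subunit, rose to 127.7%, the feedback inhibitor gene Tnfaip3 fell to 88.0%, and Rela was at 98.8% (adjusted p = 0.670). Of 17 tested interferon signalling genes 2 rose and 6 fell (47.1% changed, near the share over all genes, median -0.04), with Jak1 at 109% and Jak2 at 78.9%, and Ifnb1 and Ifng were at 0 counts. Ifngr1, the gene of highest FPKM in that list, fell to 94.85% (edgeR adjusted p = 0.0267). Of 13 tested inflammatory cytokine genes other than chemokines 3 rose and 3 fell (46.2% changed, also near that share, median -0.41), with the macrophage growth factor Csf1 rising to 110.9% and Il33 falling to 56.1%. Among 8 proteases that shed or cleave chemokines 2 rose and 3 fell (62.5% changed, median -0.15). Adam10, which sheds Cx3cl1 and Cxcl16, rose to 110.9%, and Mmp14 fell to 85.8%.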

How the data were processed

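RNA-seq libraries of 8 samples, 4 Ad-GFP and 4 Ad-Cre, were compared. Per the file headers, the authors deposited read counts per Ensembl gene and FPKM values of the same libraries, with the authors' group mean FPKM. In all 22 tested members the authors' deposited log2 fold change lay within 0.01 of the log2 ratio of those means, and their deposited p-value and FDR have no named test. The submitters' processing notes name GRCm38 and mm10. The sources used here do not name the aligner, counter, strand setting or annotation release.

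Counts were analysed with edgeR 4.0.16 in R 4.3.3: filterByExpr (13337 genes kept), TMM scaling (factors 0.992 to 1.01) and the two-sided quasi-likelihood test, p-values being adjusted by Benjamini-Hochberg over every gene tested (threshold 0.05). Standard errors were taken as the size of the log2 fold change over √F, and 95% intervals use the fit's degrees of freedom (median 25.2). Exact permutation tests used scipy 1.17.1. Implied length is the count over the product of FPKM and library total, brought to bases. FPKM has 2 decimals, which adds error at low values. Coordinates and overlaps come from GENCODE M21 on GRCm38, and upstream sequences from RefSeq GRCm38.p6, which matched 46 of the 60 genes and 8 of the 9 that changed (not Cxcl17). Among the genes measured, 1 of the chemokine family and 1 cell type marker are not reported here.

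Replicate pairs differed by more than sampling noise (chi-square per degree of freedom 1.83 to 3.35). The fit was tested on simulated data from these libraries with 200 of 13337 genes changed. In that comparison recovery was 63.6% at 1.25-fold, 86.6% at 1.5-fold and 98.5% at 2-fold, and unchanged genes made up 3.53% of the calls. In the data 40.3% of the genes tested were called, a far larger share than was simulated. These rates therefore need not hold for the data.

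The members and lists were chosen with earlier results of these data known. Values in every sample are given for members that changed or had a mean of at least 5 CPM. From each other list the gene of smallest p in each direction and the one of highest FPKM are named. Of the marker lists, the 2 genes of highest CPM are named for the macrophage and leukocyte list and for the mural list only. Low members such as Ccl2 and Ccl5 were singled out with their values known. Alternatives comprised RLE and upper-quartile scaling, dropping the filter or asking for a mean of 1 CPM, DESeq2 1.42.0, limma-voom (limma 3.58.1), a block for replicate number, limma on log2 of FPKM plus 1 or plus 0.1 (mean of 1 FPKM or more), thinning to the smallest library and leaving out each library.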

Additional observations from a re-analysis of the deposited data

Results flagged for a closer look

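Within groups of 4 libraries, 2 of 46 sets of values had 1 library standing apart from the other 3 by Dixon's criterion (the gap to the nearest library over the range), and chance gives about 1 in 20. Ccl2 was at 3.96 CPM in Ad-GFP replicate 3, below 4.94 to 5.03 CPM in the other Ad-GFP libraries. Ccl27a was at 2.10 CPM in Ad-Cre replicate 2, above 1.73 to 1.77 CPM in the rest of that group.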

How the results depend on the processing

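The 6 falls (Cxcl12, Cxcl17, Ccl20, Cxcr4, Cx3cr1 and Ccr1) kept their direction and call in each of the 18 alternatives that tested them. The count of members higher, 3 in the report, was 4 with no filter, and 1 with a mean of at least 1 CPM, under DESeq2, under both FPKM fits and after thinning, and 1 to 4 over the fits that leave out 1 library, as Ccl28 or Cx3cl1 was lost or not tested, or Ccl3 gained (without Ad-GFP replicate 3). The call added with no filter was Cxcl9 (adjusted p = 0.0274), on 10 counts in all. Over all genes, 5370 changed (2641 higher), against 3530 (1400 higher) with limma on log2(FPKM + 1) and 3520 (1393 higher) with log2(FPKM + 0.1), and 4816 to 5084 (2303 to 2446 higher) when 1 library was left out. The causes of these shifts were not tested. DESeq2 called 4364 genes. Upper-quartile scaling moved Cxcl10 to a log2 fold change of -0.00069. Leaving out 1 library turned the sign of uncalled members, with ranges of -0.18 to 0.21 for Cxcl10, -0.36 to 0.41 for Cxcl5, -0.0277 to 0.0818 for Ccl2, -0.156 to 0.0142 for Ackr3 and -0.23 to 0.0562 for Ccl27a. The libraries share replicate numbers with no stated pairing, and deviations of same-numbered libraries correlated at 0.083, 0.10, 0.0076 and -0.012. Ad-GFP replicates 1 and 2 correlated best with the Ad-Cre library of their own number, and replicates 3 and 4 did not. Whether same-numbered libraries share a culture or batch was not tested. With the replicate block 5390 genes changed, 2654 of them higher, with 3 members higher and 6 lower. Low counts limit most receptors and ligands such as Cxcl1, Cxcl5 and Ccl3.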

Other observations

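The table's KEGG term for chemokine signalling holds 135 genes outside the naming pattern used here, of which 114 were tested. Of these, 22 rose and 39 fell (53.5% changed, against 40.3% of all genes tested), with a median log2 fold change of -0.05 against 0.0041 over all genes. Besides Ppbp, the falls of smallest p were in Adcy1, an adenylate cyclase gene (37.6 ± 1.7 to 16.9 ± 0.88 CPM, SD, n = 4; 45.0% of Ad-GFP), in Gnai1 (38.0 ± 1.1 to 25.9 ± 2.1 CPM) and in Jak2 (98.9 ± 4.3 to 78.0 ± 2.6 CPM). The rises of smallest p, beside Nfkb1, were in the G protein γ subunit gene Gng12 (117.8% of Ad-GFP), in Stat3 (116.1%) and in the kinase gene Braf (121.3%). In each of these genes the 4 Ad-Cre libraries lay apart from the 4 Ad-GFP libraries, which their choice by smallest p favours. The same held in 54 of the 114 tested genes of the term and in 35.4% of all genes tested.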
